A study of Homo sapiens with 10 samples.

Results

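Transcripts of 10 genes of tumour necrosis factor (TNF) and death receptor signalling were examined in AsPC-1 cells, an established human pancreatic ductal adenocarcinoma line, after glutamine starvation. The genes were taken by symbol from the 36498 genes of the deposited table, and all 10 were found: the receptors TNFRSF12A, TNFRSF1A, TNFRSF21, TNFRSF10A, TNFRSF10B and FAS, the decoy receptors TNFRSF10D and TNFRSF11B, and the intracellular regulators CFLAR and CASP8. The starved group held 5 libraries from cells kept for 24 h in RPMI without glutamine and with 10% dialysed serum, and the control group 5 libraries from cells kept for 24 h in complete RPMI. Stock cultures were grown with 10% serum and 1 mM pyruvate. The labels do not say whether the control medium also had dialysed serum, so the lack of glutamine and the dialysis of serum cannot be told apart. The study used 1 cell line in this experiment, and the labels do not say that the libraries came from separate cultures, so p-values measure the spread between these libraries, which may be technical.

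Death receptors are TNF receptor superfamily proteins whose intracellular death domain recruits adaptors. After binding of TRAIL or FAS ligand, the adaptor FADD gathers caspase-8, the product of CASP8, into a complex where it activates itself and then executioner caspases. CFLAR encodes cFLIP, a relative of caspase-8 without protease activity that competes for the same complex. Decoy receptors bind ligand without passing on a death signal. TNFRSF12A encodes FN14, the receptor of TWEAK, which has no death domain and signals through TRAF adaptors.

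Starved libraries held between 164008 and 593248 counts each, and control libraries between 141763 and 474619. Levels are given in CPM, counts per 1000000 counts of a library, in which 1 count was worth 1.69 to 6.10 CPM in starved and 2.11 to 7.05 CPM in control libraries. The kit reads transcripts near their 3' ends, so values are tags per transcript and are not divided by gene length. Fold changes are ratios of group means, and log2 changes are differences of group means on the scale of log2(CPM + 1). For low genes these measures can differ in either direction. The added 1 shrinks a change, while libraries at 0 can enlarge it or turn its sign. TNFRSF10D had a mean of 17.5 CPM in starved and 14.6 CPM in control cells, but a log2 change of -0.18. Pancreatic ductal epithelial markers were present in both groups, with summed levels of 2732 to 2936 CPM in starved and 13975 to 15029 CPM in control libraries over the 12 genes of the list. The untested genes of that list were near the floor: MUC1 had 0 counts in starved and 1 in control libraries, and CEACAM5 1 and 2. Of the tested genes of that list, 7 of 10 fell and 1 rose, where 26.1% of all tested genes fell and 17.2% rose. Named after their values were seen, S100P was the gene that rose, and KRT7 and CDH1 were not called (limma adjusted p = 0.988 and 0.0795). The keratin KRT8 was at 244 ± 20.8 CPM in starved and 4075 ± 92.7 CPM in control cells, KRT18 at 1341 ± 157 CPM in starved and 5734 ± 409 CPM in control cells, and the adhesion protein gene CEACAM6 at 66.2 ± 34.5 CPM in starved and 1714 ± 148 CPM in control cells (highest limma adjusted p = 1.0e-13); KRT8 and KRT18 overlap on opposite strands. Of 10 leukocyte markers in the file 3 were tested. CD68, a lysosomal protein of macrophages, rose to 81.8 ± 19.4 CPM in starved cells, against 43.6 ± 9.02 CPM in control cells (limma adjusted p = 0.00509). LYZ, which encodes lysozyme, fell to 8.62 ± 3.08 CPM in starved cells, against 76.4 ± 18.1 CPM in control cells (limma adjusted p = 1.2e-06), and NCAM1 was not called (limma adjusted p = 0.721). Of 11 fibroblast and endothelial markers in the file 2 were tested. LUM, which encodes the matrix protein lumican, fell to 26.3 ± 3.48 CPM in starved cells, against 113 ± 28.5 CPM in control cells (limma adjusted p = 6.5e-07), and VWF was not called (limma adjusted p = 0.193). Among untested markers, chosen with their values in view, PTPRC, which defines leukocytes, had 1 count in starved and 2 in control libraries. CD3D, COL3A1, DCN, CDH5 and CLDN5 were at 0 in all libraries. CSF1R had 5 counts in starved and 1 in control libraries, COL1A2 3 and 0, CD14 2 and 1, and CD3E 0 and 3. MS4A1, ITGAM, COL1A1, THY1, PECAM1 and KDR each had 1 count in starved and 0 in control libraries. Summed leukocyte markers lay at 79.0 to 138 CPM in starved and 104 to 148 CPM in control libraries, and summed fibroblast and endothelial markers at 21.2 to 73.2 CPM in starved and 84.6 to 157 CPM in control libraries. Messenger RNA of the mitochondrial genome made up 3.38% ± 0.199 in starved and 5.20% ± 0.319 in control libraries (SD, n = 5 each). The part of these markers and of mitochondrial RNA in the results below was not tested.

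Glutamine-starved cells carried more mRNA of TNFRSF12A, of the TRAIL receptors TNFRSF10A and TNFRSF10B and of the caspase-8 inhibitor CFLAR, and less of CASP8 and TNFRSF21. TNFRSF1A was also called lower, but its groups overlapped and the call was kept in only 8 of 21 other settings. Of the 10 genes 8 reached the mean of 5 CPM needed for testing, and 7 of these passed the limma-trend test at 0.05 after Benjamini-Hochberg adjustment over 11202 genes, 4 upward and 3 downward. Among all tested genes 17.2% rose and 26.1% fell, 43.3% in all, so called genes were common throughout. Starved and control libraries did not overlap for 6 of the 8, against 30.4% of all tested genes. The median log2 change was 0.32 over the 8 tested genes and -0.22 over all tested genes. Quantile scaling moved the median of all tested genes by 0.21 to -0.02 and turned the direction of none of the 7 called genes. In bulk RNA, fewer cells that carry a transcript and less of it per cell cannot be told apart.

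**Figure D1:**
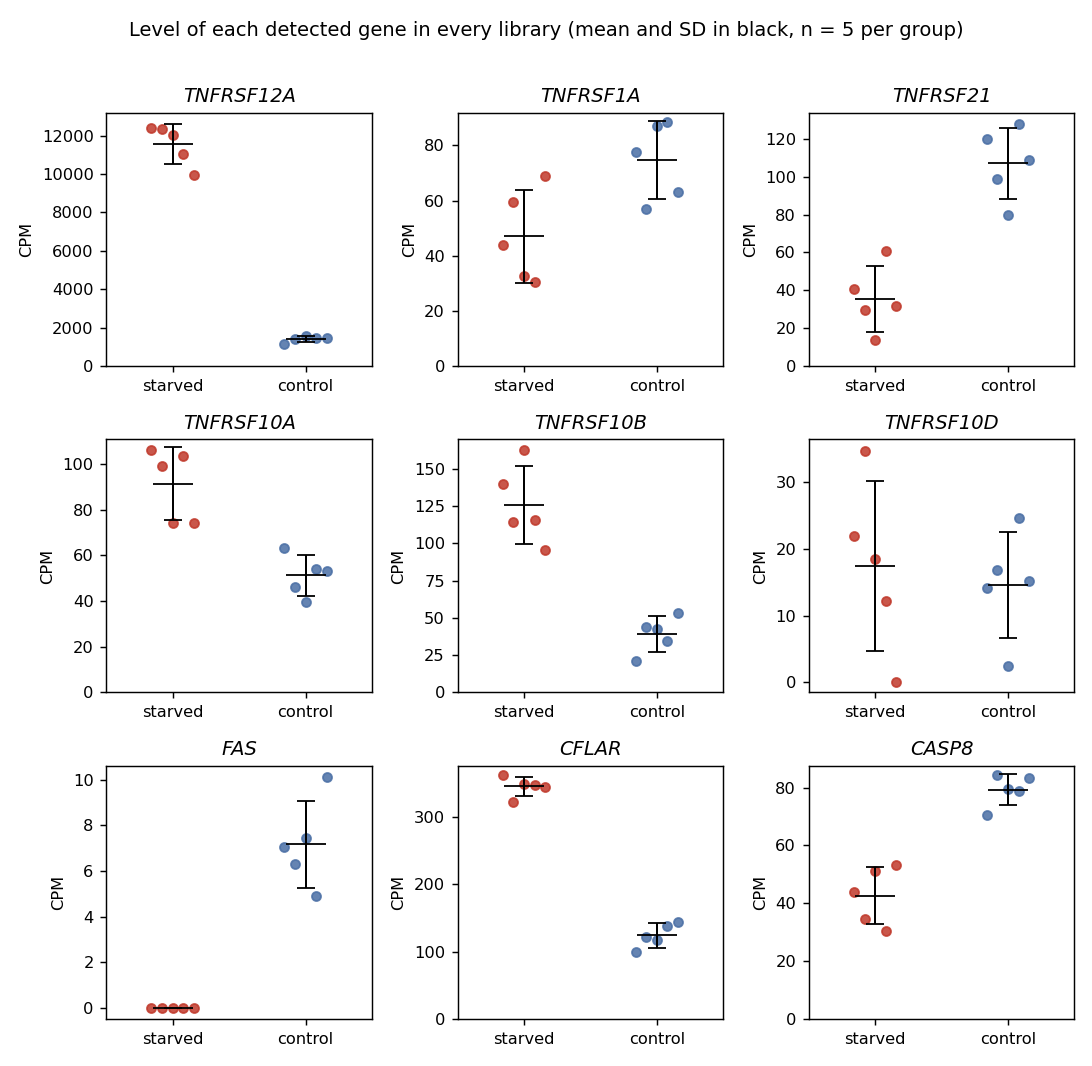
Level in CPM of the 9 detected genes in each library, starved cells in red and control cells in blue, with the mean and SD in black. The groups do not overlap for TNFRSF12A, TNFRSF21, TNFRSF10A, TNFRSF10B, FAS, CFLAR and CASP8, and they overlap for TNFRSF1A and TNFRSF10D.

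TNFRSF12A (ENSG00000006327.13) had the largest change of the 8. Its level was 12379, 12359, 12049, 11067 and 9931 CPM in starved libraries, against 1136, 1424, 1586, 1437 and 1456 CPM in control libraries. The lowest starved library thus stood far above the highest control library. The means were 11557 ± 1054 CPM in starved and 1408 ± 165 CPM in control cells (SD, n = 5 each), 8.21-fold higher in starved cells (log2 change 3.04, SE 0.09, limma adjusted p = 5.8e-17). This one transcript made up 1.16% of all counts in starved and 0.141% in control libraries. With 16114 counts in starved and 2343 in control libraries it was the most deeply counted of the 10 genes, and its spread between starved libraries was 21.6 times the variance that counting alone gives (3.76 times in control libraries). Its log2 change ranked 210 among the 11202 tested genes, counted from the largest rise. CLDN6, which overlaps it on the opposite strand, had 12 counts in starved and 2 in control libraries, few beside those of TNFRSF12A. Over the 10 libraries the transcripts whose log2 levels followed TNFRSF12A most closely were TSC22D1, EIF1 and the pseudogene OR7E38P, with Pearson r of 0.998, 0.998 and 0.996. Such likeness was common, since 293 genes had an r over 0.95, and all 10 libraries share the difference between the groups.

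TNFRSF21 and TNFRSF1A, death domain receptors outside the TRAIL group, were called lower in starved cells. TNFRSF21 (ENSG00000146072.6), which encodes the death receptor DR6, was at 40.5, 29.8, 13.9, 61.0 and 31.8 CPM in starved libraries and at 119.9, 99.03, 79.5, 128 and 109 CPM in control libraries. Every starved library lay below every control library. It fell 3.02-fold (log2 change -1.69, SE 0.30, limma adjusted p = 0.000105), on 49 counts in starved and 165 in control libraries. TNFRSF1A (ENSG00000067182.7), the main receptor for TNF itself, was at 43.8, 59.5, 32.5, 30.5 and 69.0 CPM in starved libraries and at 77.6, 56.9, 87.0, 88.6 and 63.2 CPM in control libraries. Starved libraries were mostly lower, but replicates 2 and 5 of the starved group reached into the control range. Its fall, 1.59-fold (log2 change -0.70, SE 0.26, limma adjusted p = 0.0349), was close to the threshold and depended on the processing. It was not called with edgeR (adjusted p = 0.0642), DESeq2 (0.128), TMM, median-of-ratios or quantile scaling (0.0615, 0.0605 and 0.0588) or without a filter on low values (0.0723). It was also lost without starved replicate 1, 3 or 4 (limma adjusted p = 0.0591, 0.0842 and 0.0829), without control replicate 1, 3 or 4 (0.0568, 0.0841 and 0.0804) and without control replicates 1 and 2 together (0.0530), whose index labels fall outside the regular run of the other 8 libraries.

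FAS (ENSG00000026103.19), the receptor of FAS ligand, was scarce. It had 0 counts in each of the 5 starved libraries, against 1, 3, 3, 1 and 4 counts in control libraries. Control libraries held 7.17 ± 1.91 CPM (SD, n = 5), and its mean over all libraries was below the 5 CPM needed for testing. A floor of 3 counts over the starved group, equal to 2.20 CPM, was 3.37-fold below the pooled control level of 7.42 CPM. This fold takes the control level as exact. With counting error in both groups, the upper limit of the pooled ratio, starved over control, was 0.427. The groups did not overlap (two-sided exact permutation p = 0.00794, the smallest that 5 against 5 libraries allow, unadjusted), and without the filter limma gave an adjusted p of 0.0216. These values rest on 12 counts in all. ACTA2, which overlaps FAS on the opposite strand, had 0 counts in starved libraries and 1 in control libraries.

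The receptors of TRAIL differed among themselves. TRAIL is a ligand that can kill tumour cells through TNFRSF10A (DR4) and TNFRSF10B (DR5), and TNFRSF10B is known as a target of the stress factor CHOP. TNFRSF10B (ENSG00000120889.12) was at 140, 114, 163, 116 and 95.5 CPM in starved libraries, against 21.2, 44.2, 42.3, 34.4 and 53.1 CPM in control libraries, with no overlap. It rose 3.22-fold to 126 ± 26.0 CPM in starved cells, against 39.0 ± 11.99 CPM in control cells (log2 change 1.70, SE 0.25, limma adjusted p = 9.9e-06). RHOBTB2, which overlaps it on the opposite strand, had 4 counts in starved and 21 in control libraries and was not called.

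TNFRSF10A (ENSG00000104689.9) was at 106, 99.2, 74.4, 104 and 74.3 CPM in starved libraries, against 63.5, 46.4, 39.8, 54.1 and 53.1 CPM in control libraries. The groups did not overlap, though the lowest starved library stood only a little above the highest control library. AC100861.1, on the opposite strand, had 18 counts in starved and 13 in control libraries, against 130 and 79 counts of TNFRSF10A. The rise of TNFRSF10A was 1.78-fold (log2 change 0.82, SE 0.22, limma adjusted p = 0.00400). The decoy receptor TNFRSF10D (ENSG00000173530.5), whose death domain is cut short, was at 21.9, 34.7, 18.6, 12.2 and 0 CPM in starved libraries and at 14.1, 16.9, 2.49, 24.6 and 15.2 CPM in control libraries. These ranges overlapped widely, and no change was detectable on 26 counts in starved and 22 in control libraries (limma adjusted p = 0.881). The 95% interval of its log2 change, -1.87 to 1.51, leaves room for a sizeable change in either direction, and the sign itself turned between settings (log2 change -0.18 in the main test and 0.54 with edgeR). Within a library, TNFRSF10B moved more than TNFRSF10A. Their log2 ratio was 0.39, 0.20, 1.12, 0.16 and 0.36 in starved libraries, against -1.54, -0.07, 0.09, -0.64 and 0.00 in control libraries, with no overlap. The gap was narrow, from 0.09 in control replicate 3 to 0.16 in starved replicate 4. The ratio of -1.54 in control replicate 1 rests on 3 counts of TNFRSF10B and 9 of TNFRSF10A. The mean log2 ratio rose by 0.88 (two-sided exact permutation p = 0.00794, 0.0159 adjusted over 4 pairs). Without control replicates 1 and 2 together the difference was 0.63 (adjusted exact permutation p = 0.0714), where 3 against 5 libraries allow no p below 0.0357. For TNFRSF10D against TNFRSF10A the difference was -0.997 and for TNFRSF10B against TNFRSF10D 1.87, neither past the threshold (exact permutation p adjusted over 4 pairs = 0.373 and 0.127). The second passed without control replicate 3 (2.40, adjusted exact permutation p = 0.0423). The TRAIL receptors are close paralogs, so reads in stretches they share could be split between them by the counting.

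TNFRSF11B (ENSG00000164761.8), which encodes osteoprotegerin, a secreted decoy for RANK ligand and TRAIL, had 0 counts in all 10 libraries. At this depth 0 counts over a group allow a level of up to 2.20 CPM in starved and 1.85 CPM in control cells. Together with TNFRSF10A, TNFRSF10B and TNFRSF10D it is 1 of 4 of these genes on chromosome 8.

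**Figure D2:**
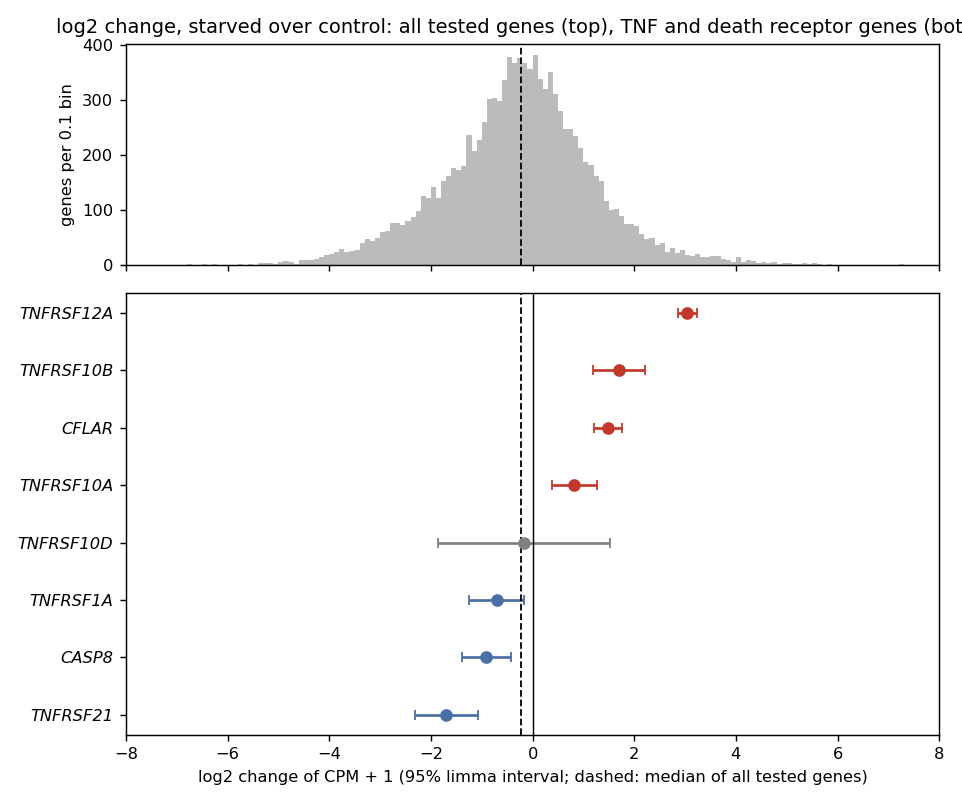
Histogram of the log2 change of CPM + 1, starved over control, of the 11202 tested genes (top) and the log2 change with its 95% limma interval for the 8 tested TNF and death receptor genes (bottom; red for called higher, blue for called lower, grey for not called). TNFRSF12A lies in the upper tail at 3.04, the interval of TNFRSF10D spans 0, and the interval of TNFRSF1A ends at -0.16, close to the median of all genes at -0.22 (dashed).

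CFLAR and CASP8, which lie near each other on chromosome 2, moved in opposite directions. CFLAR (ENSG00000003402.19) was at 362, 322, 349, 348 and 345 CPM in starved libraries, against 98.8, 122, 117, 138 and 144 CPM in control libraries. Starved libraries lay close together and all far above the control libraries. It rose 2.79-fold to 345 ± 14.5 CPM in starved cells, against 124 ± 17.9 CPM in control cells (log2 change 1.48, SE 0.13, limma adjusted p = 9.8e-09). CFLAR-AS1, on the opposite strand, had 29 counts in starved and 3 in control libraries, against 477 and 204 counts of CFLAR, so reads from it that were counted as CFLAR cannot be told apart. CASP8 (ENSG00000064012.21) was at 43.8, 34.7, 51.1, 30.5 and 53.1 CPM in starved libraries, against 70.5, 84.3, 79.5, 78.7 and 83.4 CPM in control libraries. It fell 1.86-fold to 42.6 ± 9.91 CPM in starved cells, against 79.3 ± 5.45 CPM in control cells (log2 change -0.91, SE 0.23, limma adjusted p = 0.00313). The log2 ratio of CFLAR to CASP8 within a library was 3.02, 3.18, 2.75, 3.47 and 2.68 in starved libraries, against 0.48, 0.53, 0.55, 0.80 and 0.78 in control libraries. Its mean was 2.39 higher in starved cells (two-sided exact permutation p = 0.00794, 0.0159 adjusted over 4 pairs). Over pooled counts there were 8.08 CFLAR tags for each CASP8 tag in starved and 1.56 in control libraries. Without control replicates 1 and 2 together the difference was 2.31 (adjusted exact permutation p = 0.0714, with the same lowest p of 0.0357).

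**Figure D3:**
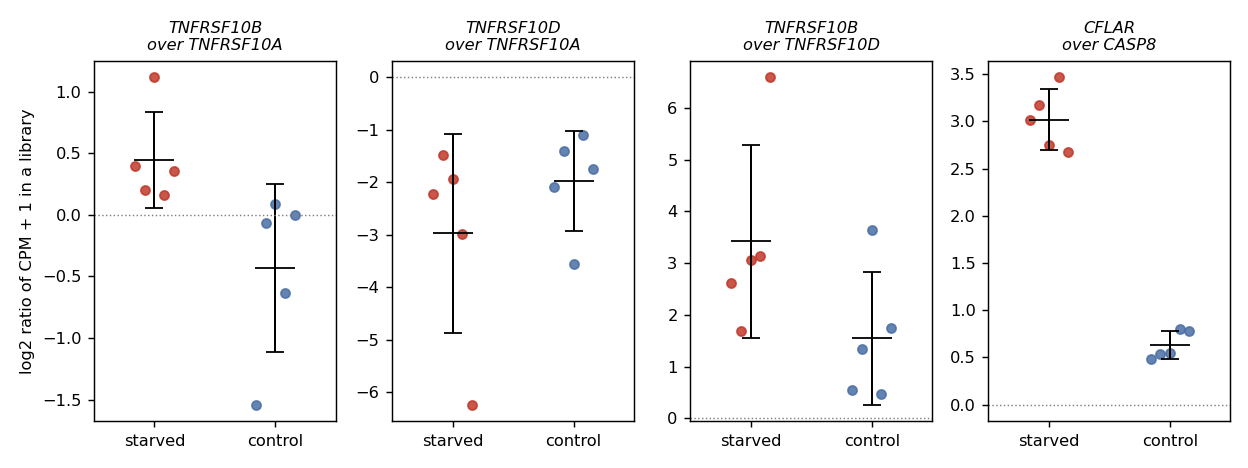
Log2 ratio of CPM + 1 between pairs of genes in each library, starved in red and control in blue, with the mean and SD in black; each panel has its own vertical scale. CFLAR over CASP8 lies between 2.68 and 3.47 in starved libraries and between 0.48 and 0.80 in control libraries, while the ratios with TNFRSF10D spread widely in both groups.

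Promoter windows came from the RefSeq table on GRCh38.p14 (250 bases before to 50 after a transcript start). Windows were read for 5 genes, CFLAR, CASP8, TNFRSF21, FAS and TNFRSF1A, 12 in all. All 4 windows of CFLAR and all 3 of CASP8 are shown because the genes are neighbours with opposite changes. Capitals mark matches, on either strand, to a relaxed NF-kB motif (3 G, any 5 bases, 2 C) or to the AP-1 letters TGANTCA, where N is any base.
CFLAR, chr2:201118466-201118765, plus strand: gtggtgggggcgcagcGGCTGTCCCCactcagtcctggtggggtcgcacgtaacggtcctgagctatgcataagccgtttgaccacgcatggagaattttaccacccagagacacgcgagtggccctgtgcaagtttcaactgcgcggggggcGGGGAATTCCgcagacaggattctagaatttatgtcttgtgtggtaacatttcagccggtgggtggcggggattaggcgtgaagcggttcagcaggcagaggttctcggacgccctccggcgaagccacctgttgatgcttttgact
CFLAR, chr2:201128715-201129014, plus strand: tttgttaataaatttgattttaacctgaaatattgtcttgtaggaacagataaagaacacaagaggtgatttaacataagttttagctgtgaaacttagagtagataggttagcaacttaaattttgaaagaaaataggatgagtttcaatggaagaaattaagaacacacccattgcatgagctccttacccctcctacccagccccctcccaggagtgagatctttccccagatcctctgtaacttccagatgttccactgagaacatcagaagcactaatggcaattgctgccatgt
CFLAR, chr2:201132531-201132830, plus strand: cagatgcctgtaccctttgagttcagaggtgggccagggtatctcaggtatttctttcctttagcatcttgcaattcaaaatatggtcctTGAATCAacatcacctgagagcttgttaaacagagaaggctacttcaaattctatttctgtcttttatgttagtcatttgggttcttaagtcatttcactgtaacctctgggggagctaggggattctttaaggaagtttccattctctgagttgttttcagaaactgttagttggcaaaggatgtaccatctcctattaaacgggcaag
CFLAR, chr2:201140025-201140324, plus strand: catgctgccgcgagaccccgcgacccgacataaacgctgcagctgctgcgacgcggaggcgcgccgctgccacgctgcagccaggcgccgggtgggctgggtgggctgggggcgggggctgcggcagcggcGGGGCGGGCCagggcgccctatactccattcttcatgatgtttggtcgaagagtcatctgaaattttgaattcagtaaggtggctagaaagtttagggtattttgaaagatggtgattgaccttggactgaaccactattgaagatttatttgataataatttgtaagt
CASP8, chr2:201233213-201233512, plus strand: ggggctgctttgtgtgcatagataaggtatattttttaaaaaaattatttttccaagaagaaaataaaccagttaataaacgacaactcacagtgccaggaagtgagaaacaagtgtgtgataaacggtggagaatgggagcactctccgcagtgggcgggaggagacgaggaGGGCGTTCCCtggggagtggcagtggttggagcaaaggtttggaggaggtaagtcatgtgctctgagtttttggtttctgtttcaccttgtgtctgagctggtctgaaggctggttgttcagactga
CASP8, chr2:201257785-201258084, plus strand: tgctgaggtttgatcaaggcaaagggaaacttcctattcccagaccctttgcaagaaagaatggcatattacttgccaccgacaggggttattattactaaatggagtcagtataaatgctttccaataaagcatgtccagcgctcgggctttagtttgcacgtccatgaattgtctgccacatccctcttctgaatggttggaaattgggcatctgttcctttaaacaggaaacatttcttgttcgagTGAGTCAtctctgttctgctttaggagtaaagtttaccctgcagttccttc
CASP8, chr2:201260286-201260585, plus strand: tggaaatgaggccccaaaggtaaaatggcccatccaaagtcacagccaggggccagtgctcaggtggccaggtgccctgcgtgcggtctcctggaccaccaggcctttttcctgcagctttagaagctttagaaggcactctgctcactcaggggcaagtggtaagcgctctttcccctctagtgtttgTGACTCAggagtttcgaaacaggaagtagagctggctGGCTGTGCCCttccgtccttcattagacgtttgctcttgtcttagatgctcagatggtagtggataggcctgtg
Of the CFLAR windows, the first held 2 NF-kB matches, the second none, the third 1 AP-1 match and the fourth 1 NF-kB match. Of the CASP8 windows, the first held 1 NF-kB match, the second 1 AP-1 match and the third 1 of each. The NF-kB motif occurs in 58.7% of the 35116 windows of the table and the AP-1 letters in 7.71%, so matches were present at the gene that rose and at the gene that fell. The cyclic AMP response element letters TGACGTCA (1.85% of all windows) and the C/EBP-ATF letters TGATGNAA (3.62%) were not found in any of the 12 windows.

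Ligands of the family were scarce. Of 18 listed TNF superfamily ligands 15 are in the file and 8 of these, among them TNF, TNFSF10 (TRAIL) and TNFSF12 (TWEAK), had 0 counts in all libraries. Only TNFSF15 was tested, with 33.6 ± 8.30 CPM in starved and 46.9 ± 13.7 CPM in control cells (SD, n = 5 each), and it was not called (limma adjusted p = 0.2503). EDA, the ligand of the EDAR receptor, chosen with its values in view, had 6 counts in starved and 4 in control libraries. For a ligand at 0 counts, the depth allows up to 2.20 CPM in starved and 1.85 CPM in control cells.

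Of 8 tested other receptors of the superfamily 5 fell and 1 rose, where 26.1% of all tested genes fell and 17.2% rose, with a median log2 change of -1.34 against -0.22 over all tested genes. TNFRSF6B, a soluble decoy receptor for FAS ligand, fell 10.7-fold to 129 ± 35.4 CPM in starved cells, against 1380 ± 97.05 CPM in control cells (log2 change -3.45, SE 0.16, limma adjusted p = 1.0e-13). It shares sequence with the readthrough transcript RTEL1-TNFRSF6B and overlaps ARFRP1 on the opposite strand, which rose (log2 change 1.32), so its level is uncertain. EDAR, the ectodysplasin receptor, had 0 counts in starved and 48 in control libraries. The floor of 3 counts over the starved group was 13.5-fold below its pooled control level, taken as exact. With counting error in both groups, the upper limit of the pooled ratio of EDAR, starved over control, was 0.0948. TNFRSF1B, the second TNF receptor, had 48.9 ± 10.5 CPM in starved and 83.3 ± 15.3 CPM in control cells (log2 change -0.76, SE 0.23, limma adjusted p = 0.00946), a call lost with DESeq2. RELT, named after its values were seen, was the member that rose, on 34 counts in starved and 12 in control libraries. Its call was lost in 6 of 20 other settings, among them the leaving out of starved replicate 1, 2 or 3 and of control replicate 3 or 5. The third TRAIL decoy TNFRSF10C, also named after its values were seen, had 3 counts in starved and 2 in control libraries.

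Of 18 tested adaptors, TRAFs and ubiquitin ligases 5 rose and 2 fell, a share called near the 43.3% over all tested genes, with a median log2 change of -0.10 against -0.22. RBCK1, a subunit of the linear ubiquitin ligase at the TNF receptor complex, rose 6.90-fold to 504 ± 75.6 CPM in starved cells, against 73.1 ± 21.9 CPM in control cells (log2 change 2.81, SE 0.18, limma adjusted p = 3.9e-11). Another subunit of that ligase, SHARPIN, named after its values were seen, fell to 38.1 ± 6.43 CPM in starved cells, against 91.7 ± 26.9 CPM in control cells (limma adjusted p = 0.000715). A further subunit, RNF31, also named after its values were seen, had 0 counts in starved and 1 in control libraries and was not tested. BIRC2 and BIRC3, which encode the cIAP ubiquitin ligases that hold caspase-8 activation at TNF receptors in check, rose 3.34-fold and 3.20-fold. BIRC2 had 97.1 ± 21.7 CPM in starved and 29.1 ± 6.59 CPM in control cells, and BIRC3 67.5 ± 13.8 CPM in starved and 21.1 ± 5.65 CPM in control cells. The death domain adaptors FADD and TRADD, also chosen with their values in view, did not pass the test. FADD had 40.3 ± 15.7 CPM in starved and 55.8 ± 16.7 CPM in control cells (limma adjusted p = 0.213), and TRADD 12.4 ± 7.85 CPM in starved and 24.3 ± 3.78 CPM in control cells (limma adjusted p = 0.0774).

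Of 13 tested caspases and mitochondrial amplifiers 2 rose and 4 fell, again near the 43.3% called over all tested genes, with a median log2 change of -0.90 against -0.22. CYCS, cytochrome c, which has many pseudogenes, rose 1.90-fold to 734 ± 45.9 CPM in starved cells, against 386 ± 60.0 CPM in control cells. BID, the substrate through which caspase-8 reaches mitochondria, fell 5.94-fold to 16.4 ± 11.9 CPM in starved cells, against 97.4 ± 18.4 CPM in control cells (log2 change -2.69, SE 0.36, limma adjusted p = 2.9e-06). Of 13 tested genes of the necroptosis and TAK1 kinase branch 2 rose and 3 fell, also near the 43.3% over all tested genes, with a median log2 change of 0.10 against -0.22. MAP3K5, a stress kinase also called ASK1, fell to 31.5 ± 8.51 CPM in starved cells, against 92.1 ± 8.03 CPM in control cells. The JNK genes parted: MAPK8 had 78.1 ± 13.5 CPM in starved and 37.2 ± 5.92 CPM in control cells and was called higher, and MAPK9 had 9 counts in starved and 51 in control libraries and was called lower (limma adjusted p = 0.00116 and 0.00318). The groups of MAPK9 overlapped, at 0 to 13.9 CPM in starved and 9.84 to 50.6 CPM in control libraries. Its counts in starved libraries were 6, 0, 3, 0 and 0. The call of MAPK9 was lost without control replicates 1 and 2 together.

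**Figure D4:**
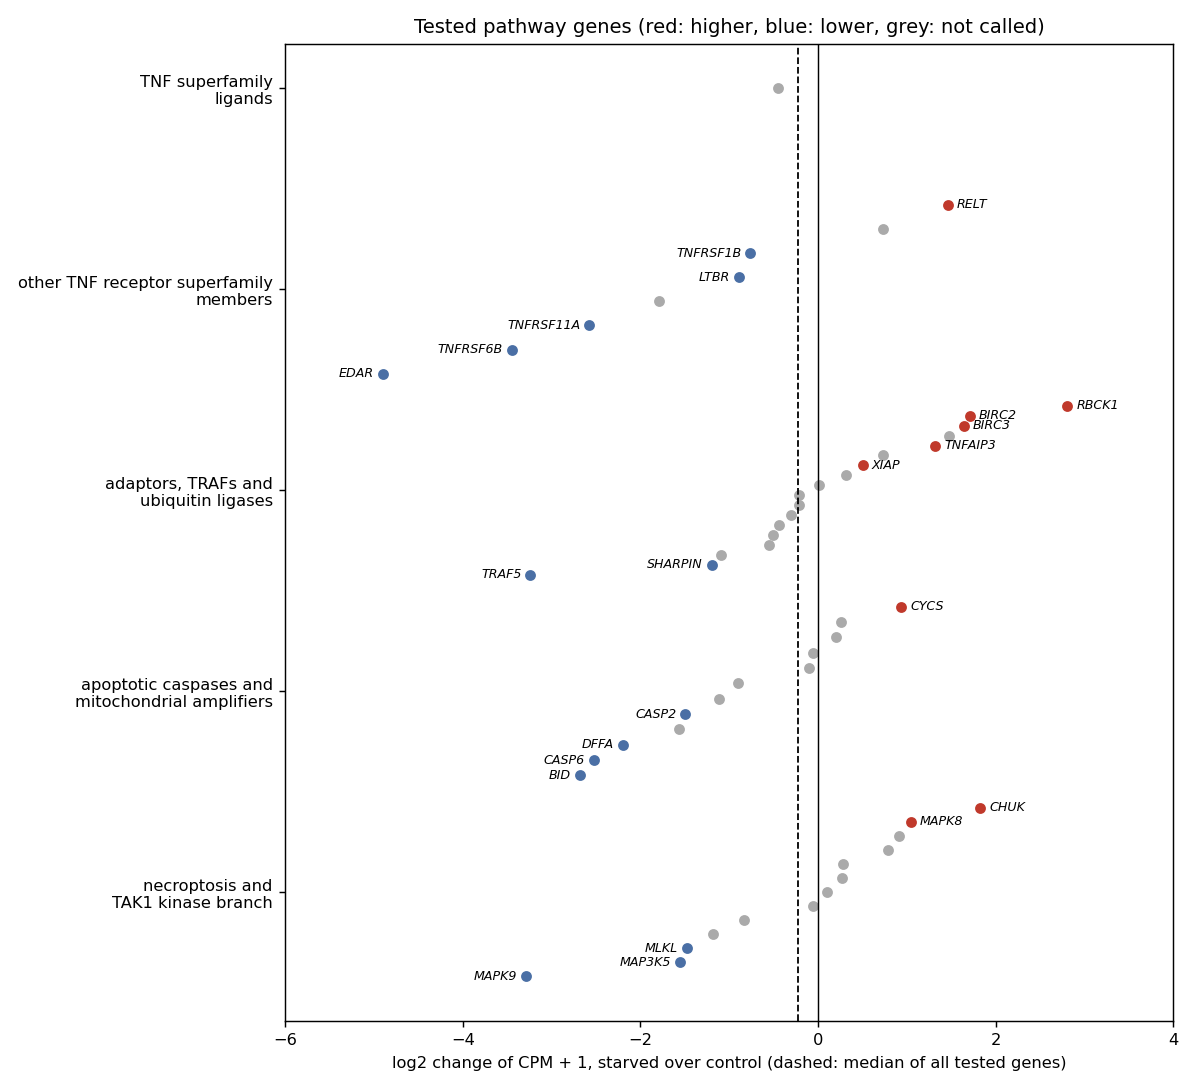
Log2 change of CPM + 1, starved over control, of tested genes in 5 lists of the pathway; each point is a gene, red where called higher, blue where called lower and grey where not called, and the dashed line marks the median of all tested genes at -0.22. Each list with more than 1 tested gene held calls in both directions, from EDAR at -4.90 to RBCK1 at 2.81.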

How the data were processed

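Total RNA of AsPC-1 cells was made into 10 libraries with the QIAseq UPX 3' Transcriptome kit, per the labels' protocols. The submitters' processing notes name the build hg19; for the aligner, counter, annotation, strandedness and molecular identifiers, no source used here gives a statement. The deposited values are CPM, scaled by the authors to 1000000 per library. Dividing each library by its lowest value above 0 returned whole numbers for 100% of entries (relative tolerance 1e-06), and these served as counts.

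Differences were tested two-sided with limma-trend 3.58.1 under R 4.3.3. Its input was log2(CPM + 1) of genes averaging 5 CPM or more, with Benjamini-Hochberg adjustment over all of them and a threshold of 0.05. Ratios between 4 pairs of genes were compared with exact permutation tests. Floors (3 counts over a group) and the upper limits of pooled ratios cover counting error only. The limma intervals of log2 changes rest on the spread between libraries. Alternatives were DESeq2 1.42.0 and the quasi-likelihood test of edgeR 4.0.16 on the recovered counts, other scalings, filters and pseudocounts, a replicate block and left-out libraries. The limma-trend and edgeR tests were also run on simulated data with few changed genes, equal in both directions. These data had 43.3% of genes called, more of them lower, so that run does not measure false calls here. The genes and lists were chosen with earlier results of these data known. Named were all 10 genes, up to 3 genes of each list with the smallest p, and the 3 nearest patterns; genes chosen after their values were seen are said to be so. 1 listed gene enters the counts but is not reported or plotted here. Overlaps between genes come from GENCODE 29 by gene identifier.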

Additional observations from a re-analysis of the deposited data

Results flagged for a closer look

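Of 70 groups of 5 libraries examined, 4 held a library far from the others; chance alone gives about 1 in 20. Starved replicate 3 had a log2 ratio of TNFRSF10B to TNFRSF10A of 1.12, against 0.16 to 0.39 in the other starved libraries. BID stood at 37.2 CPM in starved replicate 5, against 8.43 to 14.9 CPM in the other starved libraries. VWF, an endothelial marker, had 4.97 CPM in control replicate 3 and 0 in the other control libraries, on 2 counts. Starved replicate 1 held 593248 counts, against 164008 to 215121 in the other starved libraries. Without starved replicate 1 the log2 changes of TNFRSF12A, CFLAR, TNFRSF10A and TNFRSF10B were 3.01, 1.46, 0.76 and 1.65, all still called (highest limma adjusted p = 0.0154, for TNFRSF10A).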

How the results depend on the processing

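The 4 genes called higher were TNFRSF12A, TNFRSF10B, CFLAR and TNFRSF10A in all 21 alternatives, and CASP8 and TNFRSF21 were called lower in all of them. TNFRSF1A kept its direction in all 21 and its call in 8. Over all genes the alternatives gave 1637 to 2483 higher and 2208 to 3127 lower calls, all within 1.5 times the main counts. The log2 change of TNFRSF10D was not called in any setting it could be tested in, and its sign turned with a pseudocount of 5 (0.043), quantile scaling (0.45), edgeR (0.54), DESeq2 (0.46) and without control replicates 1 and 2 together (0.040). The sign also turned in leave-one-out fits, which ran from -0.65 without control replicate 3 to 0.71 without starved replicate 5. Starved replicate 5 was the only library with TNFRSF10D at 0 CPM. The cause of the turn was not tested. At a pseudocount of 5 the ratio TNFRSF10B to TNFRSF10D passed the threshold (difference 1.55, adjusted exact permutation p = 0.0423). With 1 library left out, the difference ran from 1.08 to 2.40 for that ratio, 0.60 to 1.01 for TNFRSF10B to TNFRSF10A, -1.39 to -0.18 for TNFRSF10D to TNFRSF10A and 2.28 to 2.47 for CFLAR to CASP8. Without control replicates 1 and 2 together the differences of TNFRSF10B to TNFRSF10A and of CFLAR to CASP8 were 0.63 and 2.31. Same-numbered libraries had correlations of -0.02 to 0.02 in their deviations from the group means, and 1 of 5 starved libraries correlated best with its own number. The highest correlation between a starved library and any control library was 0.029. With all correlations this close to 0, the check cannot decide whether replicate numbers pair the libraries. A replicate block in limma gave 1915 higher and 2886 lower genes. Sign flips over pairs in a replicate block left the differences at 0.88 and 2.39, with adjusted exact permutation p = 0.125 for each, as 5 pairs allow no p below 0.0625. Depth limits what can be said of FAS, TNFRSF11B, TNFRSF10D and most ligands.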
